A study of Mus musculus with 5 samples.

Results

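The Snhg genes, the small nucleolar RNA host genes of the mouse, were examined by RNA sequencing in the mouse myoblast line C2C12, which is established in culture. Rows of the deposited table of normalized values were taken where the gene symbol was Gas5 or Snhg followed by a number. The rule found 14 of 12615 listed genes, all of them Snhg genes, and Gas5 was not analysed here. Small nucleolar RNAs (snoRNAs) guide the chemical modification of ribosomal RNA. Most are cut from the introns of a longer transcript. In a Snhg gene the spliced exons encode no long protein, and the host RNA is in many cases destroyed quickly by nonsense-mediated decay. Many snoRNA hosts start with a run of pyrimidines, as ribosomal protein messengers do, and are known to be transcribed together with the machinery of ribosome production.

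There were 3 samples with the empty vector pCMVmiR and 2 samples labelled miR-16 knockdown, each transfected with plasmid DNA for 5 hours in growth medium. The treatment protocol speaks of a plasmid for miR-16-1 (miR-16-5p), the group label of a knockdown and the authors' tables of inhibition, and knockdown is used here as the label gives it. The microRNA itself was not analysed here, so no level of it checks that label. The depth, estimated from the value of 1 read, was 15.2 to 20.1 M reads over the listed genes. Of 8 fixed myoblast markers 7 were listed, with summed values of 10460 to 11020 in empty vector and 10470 to 11010 with knockdown, while 1 of 8 myotube markers was listed. Summed markers of macrophages (3 of 5 listed) were 408 to 449 and 390 to 443 in the same order. Per the column names, flow cell A carried empty vector 1 and 3, and flow cell B carried empty vector 2 and both knockdown samples; lane and identifier series divide the samples the same way. The labels do not say whether replicates were separate cultures, and the spread behind each p-value may therefore be technical.

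Of the 14 Snhg genes, 12 held at least 1 annotated snoRNA on the same strand, 31 snoRNA genes in all. Snhg1 (chromosome 19) held 8, Snhg12 (chromosome 4) held 5, and Snhg7, Snhg16 and Snhg17 held 3 each. Separate entries of the same name were each counted, for Snora16a in Snhg12 and for Snora43 in Snhg7. Snhg10 and Snhg20 held no gene annotated with the type snoRNA. Only that type was counted, so small Cajal body RNAs annotated under another type would be missed. Every value of the 14 genes in the 5 samples was a whole number of reads within 0.02 reads, 70 of 70 values. The fewest reads were 6 to 15 for Snhg10 and 20 to 36 for Snhg7, and the most 947 to 1345 for Snhg5.

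Windows around the annotated start, from the RefSeq promoter sequences (build GRCm38.p6), are reported for 12 of the 14 genes. Snhg4 and Snhg6 were left without a window, which does not show that RefSeq lacks a start for them. The shares of Snhg genes given here therefore cover the 12 reported genes only. A C followed by at least 4 pyrimidines, starting within 5 bases of the annotated start on the transcribed strand, was present in 6 of these 12 genes, or 50%. The share was 20.2% over 10071 genes of the table and 47.5% over 61 ribosomal protein genes. These shares can include runs that lie wholly before the annotated start, as the run of Snhg10 did. The 3 hosts with the smallest p between the groups, Snhg5, Snhg15 and Snhg20, had no such run in this window. They are shown with Snhg12, Snhg8 and Snhg18, which had one (in capitals), as 20 bases before and 20 bases from the annotated start on.
Snhg5: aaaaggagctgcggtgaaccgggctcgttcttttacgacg
Snhg15: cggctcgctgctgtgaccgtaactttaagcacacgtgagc
Snhg20: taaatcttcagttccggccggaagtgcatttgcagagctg
Snhg12: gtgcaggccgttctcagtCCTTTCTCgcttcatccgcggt
Snhg8: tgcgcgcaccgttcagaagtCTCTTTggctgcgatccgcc
Snhg18: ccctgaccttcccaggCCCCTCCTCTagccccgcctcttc

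These windows lie at chr9:88522878-88522917 on the minus strand for Snhg5, chr11:6528741-6528780 (minus) for Snhg15 and chr11:117076763-117076802 (plus) for Snhg20. Those of Snhg12, Snhg8 and Snhg18 lie at chr4:132308658-132308697 (plus), chr3:123508317-123508356 (minus) and chr15:32244643-32244682 (minus). In Snhg5 the pyrimidine-rich stretch begins further into the transcript, outside the window that was searched. The letters CACGTG, an E-box that reads the same on both strands, occurred between 250 bases before and 50 after the start in 1 of the 12 genes, Snhg15, and in 10.3% of the 10071 genes.

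Sites for the microRNA itself were searched in the longest annotated transcript and are reported for 12 Snhg genes. The mature miR-16-5p is given with its seed, bases 2 to 8, in capitals, followed by each site found in them, in capitals with its flanks. The words searched on the transcript strand were TGCTGCT, which pairs to the whole seed, and GCTGCTA, which pairs to all but its last base and ends in an A.
miR-16-5p: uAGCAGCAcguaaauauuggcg
Snhg1: aacactttttTGCTGCTtactatttgt
Snhg17: gtaacgtgtcGCTGCTActcttccatg
Snhg18, first: cattgctcggTGCTGCTtcggttttat
Snhg18, next: aaatttctagGCTGCTAggatgtgtga

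Sites are thus shown for 3 hosts, and no share of hosts with a site is given, since the report of the search is not complete. None of the 3 was among the 3 hosts with the smallest p, but a link between sites and differences was not tested. From empty vector to knockdown, these 3 had limma log2 differences of 0.036 ± 0.19 (SE) for Snhg1, 0.11 ± 0.13 for Snhg17 and -0.21 ± 0.25 for Snhg18, each smaller than its SE.

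The level of the hosts in myoblasts was compared per kb of the longest annotated transcript, which GENCODE M21 gave for 13 of the 14 genes. Of these 13 Snhg genes, Snhg5, the host of the box C/D snoRNAs Snord50a and Snord50b, stood first in all 5 samples. It had 835 ± 5.21 normalized signal per kb (SD, n = 3) in empty vector and 997 ± 52.1 (SD, n = 2) with knockdown. Its level per kb was above that of 90.4% of the 12534 genes with a length. Snhg3, the host of the U17 snoRNAs Snora73a and Snora73b, which act in the processing of the ribosomal RNA precursor, followed at 288 ± 19.1 per kb (SD, n = 3) in empty vector. Snhg12 had 236 ± 25.2 per kb and Snhg15 201 ± 63.0 (SD, n = 3 each), and these last 2 did not differ beyond their spread.

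Lower in the order, Snhg6 had 164 ± 49.3 per kb, Snhg8 154 ± 24.7, Snhg4 129 ± 11.2 and Snhg16 105 ± 22.4 (SD, n = 3 each, empty vector). Neighbours among these 4 lay within the sum of their SDs. Snhg17 stood at 81.8 ± 2.61 per kb and Snhg18 at 55.1 ± 8.25 (SD, n = 3 each). Snhg1 at 48.0 ± 4.24, Snhg20 at 33.0 ± 3.64 and Snhg10 at 16.7 ± 4.71 per kb (SD, n = 3 each) closed the list. With the median transcript length of each gene in place of the longest, Snhg5 stayed first and Snhg10 last, while Snhg15 moved from place 4 to place 7. The non-coding snoRNA host 2410006H16Rik, listed under another symbol, stood above Snhg5. It had 1288 ± 269 per kb (SD, n = 3) in empty vector and 1505 ± 112 (SD, n = 2) with knockdown. The remaining non-coding hosts listed under other symbols stood below Snhg5.

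**Figure D1:**
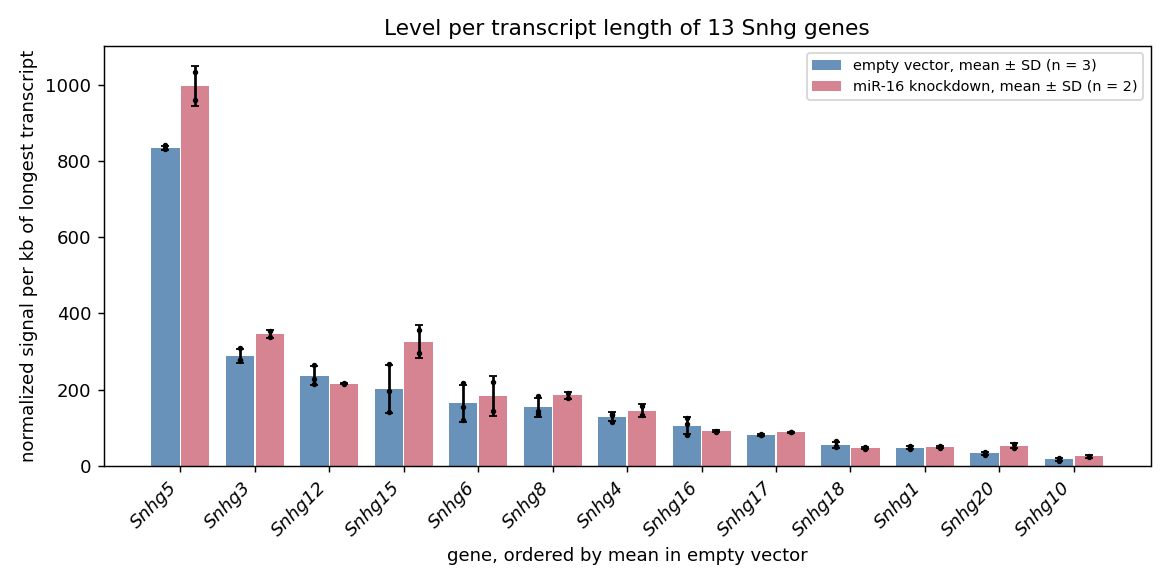
Normalized signal per kb of the longest transcript (y axis) for 13 Snhg genes (x axis), as mean ± SD of 3 empty vector samples (blue) and 2 miR-16 knockdown samples (red), with each sample as a black dot. Snhg5 stands at 835 and 997 per kb, followed by Snhg3 at 288 and 346 per kb.

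The comparison of knockdown with empty vector addresses whether host levels follow the manipulation of miR-16. In bulk RNA, fewer cells of a type and less RNA per cell cannot be told apart. None of the 14 Snhg genes passed the threshold, a limma adjusted p under 0.05 over all 11990 genes with a mean of at least 10, and the background was 0%. By the unadjusted p, 3 hosts were under 0.05, Snhg15, Snhg20 and Snhg5, all higher with knockdown, or 21.4% of the 14, beside 2.83% of all tested genes in that direction. No host was lower at that level, where 5.3% of all genes were, and 8.13% of genes had such a p in either direction. Values were higher with knockdown in 11 hosts and lower in 3, and the median log2 difference was 0.17, beside 0.00073 and 50.2% higher over all tested genes. Once a trend with transcript length was removed, the median was 0.043, with 9 of 13 hosts higher, beside 0.00035 over all genes. All 14 passed the filter on low values, on their mean over the 5 samples. Snhg10 passed narrowly, at 10.45, with a mean of 8.78 in empty vector and 12.97 with knockdown. It thus entered through the group where it is high, and it is counted among the 11 higher hosts.

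Snhg15, the host of the box H/ACA snoRNA Snora9 and a short-lived RNA in human cells, had normalized values of 132, 180 and 95.4 in empty vector samples 1, 2 and 3 and of 240 and 200 in knockdown samples 1 and 2. Both knockdown samples lay above every empty vector sample, with empty vector 2 the nearest. The log2 difference was 0.73 ± 0.23 (SE, limma adjusted p = 0.535). Against the control on the same flow cell it was smaller, at 0.28 ± 0.26 (SE) in a fit with a flow cell term. Empty vector 2 held 1.58 times the mean of the flow cell A controls, and the knockdown mean was 1.22 times empty vector 2.

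Snhg20, known in human cells as the host of a small Cajal body RNA, had normalized values of 73.7, 77.1 and 62.1 in the controls and of 125 and 103 with knockdown. The groups did not overlap, and the empty vector samples of both flow cells lay together. The log2 difference was 0.68 ± 0.24 (SE, limma adjusted p = 0.565) with all samples and 0.55 ± 0.32 with the flow cell term. At a mean of 88.2 it lies under the level of 100 set for a description by sample, as do Snhg7, Snhg10 and Snhg18, and its sample values were chosen for display after they were seen.

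Snhg5 had 1017, 1026 and 1015 in the controls and 1172 and 1262 with knockdown. The 3 controls lay close together on both flow cells, and both knockdown samples stood above them. The mean of the knockdown samples was 1.19 times that of the controls, and the log2 difference 0.25 ± 0.087 (SE, limma adjusted p = 0.565). It was 0.24 ± 0.12 in the fit with the flow cell term. The samples also differed in a trend with transcript length, of 0.070, -0.016 and 0.052 log2 units per doubling of length in empty vector 1, 2 and 3 and of -0.014 and -0.093 with knockdown. Once that trend was removed, the log2 difference was 0.13 ± 0.081 for Snhg5, 0.53 for Snhg15 and 0.62 for Snhg20.

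In the authors' deposited table the same 3 hosts had the smallest p of the 13 listed members. The authors' deposited table gives Snhg15 a ratio of inhibition to control of 1.61 with an unadjusted p of 0.00277, Snhg5 a ratio of 1.19 with 0.00367 and Snhg20 a ratio of 1.60 with 0.0224. The adjusted p in the authors' deposited table is 0.129 for Snhg5. At p under 0.05 that table holds 3.47% of its genes as higher and 5.99% as lower. It rests on the same 5 samples and is not independent of the values above.

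**Figure D2:**
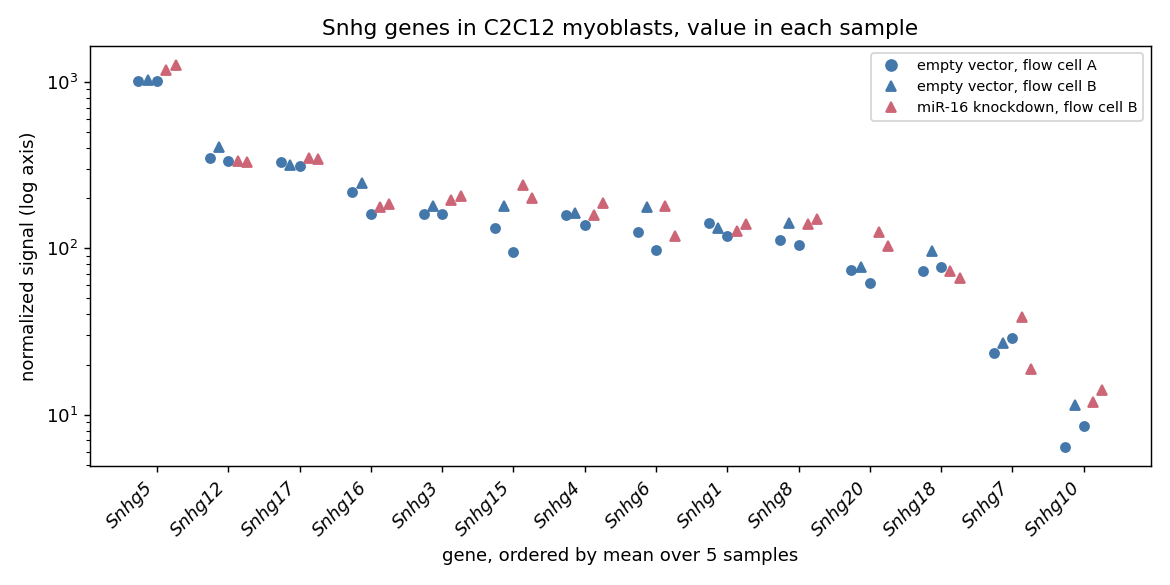
Normalized signal (y axis, log scale) of the 14 Snhg genes (x axis) in each sample, with empty vector in blue, miR-16 knockdown in red, circles for flow cell A and triangles for flow cell B. For Snhg5, Snhg15 and Snhg20 the 2 red triangles lie above all blue points, and for Snhg8 the blue triangle lies between the red ones.

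Of the other hosts of box H/ACA snoRNAs, which guide pseudouridylation, Snhg3 had 161, 180 and 161 in empty vector and 196 and 205 with knockdown. Its groups did not overlap, and its log2 difference was 0.26 ± 0.16 (SE, limma adjusted p = 0.707). It was 0.16 with the flow cell term and 0.043 with the length trend removed. Snhg8, the host of Snora24, had 112, 141 and 105 in empty vector and 139 and 149 with knockdown. Here empty vector 2 stood with the knockdown samples, and the log2 difference fell from 0.28 to 0.029 with the flow cell term. Snhg4, the host of Snora74a on chromosome 18, had 159, 163 and 138 against 157 and 188, with overlapping groups. Snhg7, the host of Snora17 and Snora43, lay between 18.8 and 38.8 in all samples, with the 2 knockdown samples at the extremes.

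Among the hosts of box C/D snoRNAs, which guide ribose methylation, Snhg1 had 142, 131 and 119 in empty vector and 127 and 141 with knockdown. Its groups overlapped throughout, with a log2 difference of 0.036 ± 0.19 (SE, limma adjusted p = 0.972). Snhg6, the host of Snord87, had 126, 177 and 97.5 against 179 and 118, so that each group spanned nearly the same range. Snhg16, the host of Snord1a to Snord1c, had 218, 248 and 161 against 177 and 184. Its log2 difference was -0.19 with all samples and -0.46 ± 0.24 with the flow cell term. Snhg18, the host of Snord123, had 72.6, 95.8 and 77.1 against 73.3 and 66.6, with -0.21 and -0.45. Neither passed the threshold in any fit.

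Snhg12, which holds both kinds of snoRNA, had 350, 407 and 332 in empty vector and 334 and 329 with knockdown. Empty vector 2 was the highest sample, and the log2 difference was -0.12 with all samples and -0.29 with the flow cell term. Snhg17 was among the steadiest hosts, with 330, 315 and 311 in empty vector and 348 and 342 with knockdown. Its groups did not overlap, and its log2 difference was 0.11 ± 0.13 (SE, limma adjusted p = 0.834). Snhg10 had 6.41, 11.4 and 8.57 against 11.9 and 14.1, a difference of a few reads. In all, 6 hosts were higher in both knockdown samples than in every control, or 42.9%, beside 11.4% of all tested genes, and 0 were lower, beside 12.4%. Snhg10, which passed the filter only through its knockdown values, is among these 6.

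**Figure D3:**
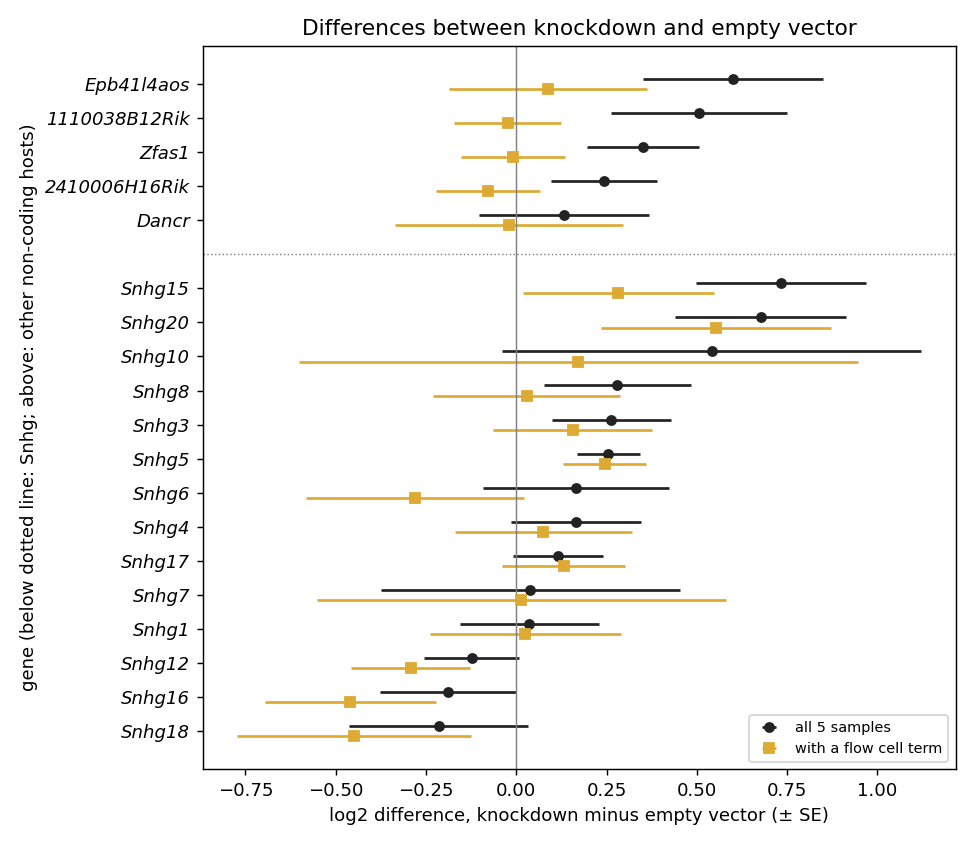
Log2 difference, knockdown minus empty vector (x axis), with its standard error for 14 Snhg genes (below the dotted line) and 5 other non-coding snoRNA hosts (above), from all 5 samples (black circles) and from a fit with a flow cell term (yellow squares). Snhg5, Snhg17 and Snhg20 keep most of their difference in both fits, while Snhg15 goes from 0.73 to 0.28 and Snhg8 from 0.28 to 0.029.

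In many of the hosts, empty vector 2, the only control on flow cell B, stood above the flow cell A controls. Empty vector 2 stood above both flow cell A controls in 11 of the 14 hosts, or 78.6%, beside 33.8% of all tested genes. The median log2 difference of empty vector 2 minus the flow cell A controls was 0.22 over the 14 hosts and 0.00052 over all tested genes. It was 0.68 for Snhg15, 0.67 for Snhg6 and 0.41 for Snhg16, but 0.015 for Snhg5 and 0.19 for Snhg20. This control is a single sample, so no test was made of its difference from the others. It is also the lone control that the fit with a flow cell term sets against the knockdown samples, and its spread is there assumed to equal that of the other samples. In the fit with that term the median difference of the 14 hosts between the groups was 0.052, with 10 higher, beside -0.011 and 47.3% higher over all genes, and 0 hosts had an unadjusted p under 0.05, beside 2.54% of all genes.

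The 5 other non-coding snoRNA hosts are those listed here under symbols other than Snhg. Their median log2 difference between empty vector 2 and the flow cell A controls was 0.54. Zfas1, a host of Snord12 antisense to Znfx1, had 430, 604 and 401 in the controls and 579 and 622 with knockdown. The RNA 1110038B12Rik, a host of Snord52, had 366, 688 and 429 against 676 and 677, and 2410006H16Rik, a host of Snord49a, Snord49b and Snord65, had 562, 733 and 491 against 732 and 659. In these 3 genes empty vector 2 stood among or above the knockdown samples and apart from the other controls. Epb41l4aos had 75.8, 142 and 91.1 against 152 and 150. Dancr, a host of Snora26, differed less, with 92.9, 97.4 and 73.9 against 106 and 87.3.

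None of the 5 passed the threshold (limma adjusted p of 0.569 to 0.902), and all 5 were higher with knockdown, with a median log2 difference of 0.35. Under the flow cell term the median was -0.020 and 1 of 5 was higher. Without empty vector 2, 1110038B12Rik alone of the 5 passed, with a log2 difference of 0.77 (limma adjusted p = 0.0196), as did 0.234% of all genes. That fit has no control on flow cell B, so group and flow cell cannot be told apart in it, and the gene had -0.024 with the flow cell term. Summed, the 5 took 92.5 and 90.0 ppm of the signal in empty vector 1 and 3, 139 in empty vector 2 and 137 and 138 with knockdown. The 14 Snhg genes took 177, 195 and 164 ppm in empty vector samples 1, 2 and 3 and 203 and 209 with knockdown.

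**Figure D4:**
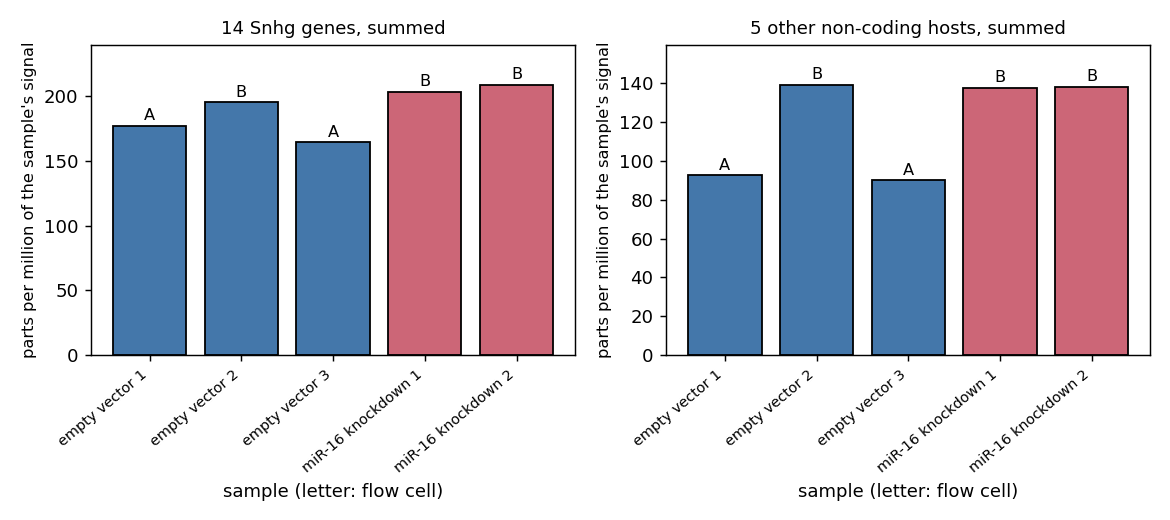
Summed share of the sample's signal in ppm (y axis) for the 14 Snhg genes (left) and 5 other non-coding snoRNA hosts (right) in each sample (x axis), with empty vector in blue, knockdown in red and the flow cell as a letter. On the right the flow cell B control reaches 139, beside 137 and 138 with knockdown, and on the left it stays at 195, below 203 and 209.

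The protein-coding snoRNA hosts are mostly genes of ribosomal proteins and translation factors. Of 42 tested, 36 were higher and 6 lower with knockdown, 0 passed by limma, 6 were higher at an unadjusted p under 0.05, and the median log2 difference was 0.11. Over all tested genes 50.2% were higher, and 2.83% were higher at that p. Rpl27a had 2146 ± 160 in the controls (SD, n = 3) and 2556 ± 36.4 after knockdown (SD, n = 2). Its log2 difference of 0.25 was 0.13 with the flow cell term. Rps12 had log2 differences of 0.41 and Rpl39 of 0.55, which were 0.11 and 0.12 with the flow cell term. The median of the 42 was 0.0063 with that term, and empty vector 2 stood above both flow cell A controls in 33 of them, beside 33.8% of all tested genes.

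Genes of the snoRNP, the particle in which a snoRNA works, and of its assembly had 15 of 21 members higher, 0 past the threshold by limma and 2 higher at an unadjusted p under 0.05, beside 50.2% and 2.83% of all genes higher in these 2 ways. Their median log2 difference was 0.064. Znhit3, a factor of box C/D particle assembly, had 247 ± 36.3 in the controls (SD, n = 3) and 331 ± 42.5 after knockdown (SD, n = 2). Naf1, which assembles box H/ACA particles, had 943 ± 25.8 in the controls and 1081 ± 25.8 after knockdown, with the same n. Their log2 differences of 0.42 and 0.20 were 0.52 and 0.23 with the flow cell term, while the median of the whole list was -0.043 with that term, with 9 of 21 higher. Snu13, a core protein of the box C/D particle, had 0.13.

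Factors of nonsense-mediated decay, which degrades many host RNAs, had 10 of 21 members higher and 11 lower, with a median log2 difference of -0.0059. By limma 0 passed, and 1 was higher and 3 lower at an unadjusted p under 0.05, beside 2.83% and 5.3% of all tested genes. Xrn1, the exonuclease that digests RNA from its 5' end, had 958 ± 119 in the controls (SD, n = 3) and 773 ± 64.5 after knockdown (SD, n = 2). Upf2, a core factor of the pathway, and Smg1, the kinase that acts on Upf1, had log2 differences of -0.27 and -0.40. Xrn1, Upf2 and Smg1 had -0.097, -0.17 and -0.20 once the flow cell was a term. The groups overlapped for Smg1, with 3134 in knockdown 1 beside 3050 in empty vector 2, and 2235 in knockdown 2. Transcripts known to respond to that decay and to stress had 6 of 11 members lower and a median of -0.041, with Atf3 at -0.54, Gadd45a at -0.34 and Trib3 at -0.26, and 0 past the threshold. That median was -0.16 with the flow cell term and -0.11 with the length trend removed, but 0.025 without empty vector 2 and 0.031 without knockdown 2. Atf3 had 217.9, 211 and 180 in empty vector and 185.5 and 104.1 with knockdown, so that only knockdown 2 lay below the controls.

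Genes that lie within 2 kb of a host were given beside it where they were tested, since the strand setting of the counting is not given in the sources used here and reads of genes that overlap on opposite strands could be shared. Snhg6 overlaps Mcmdc2 in this way, and Mcmdc2 was not analysed here. Slc3a2, the amino acid transporter subunit gene that lies back to back with Snhg1, had a log2 difference of -0.019 ± 0.089 (SE). Glrx5, an iron-sulfur cluster gene back to back with Snhg10, had a log2 difference of 0.082, Trnau1ap beside Snhg12 -0.016 and Dipk1b beside Snhg7 0.030. Sema5a, a semaphorin gene back to back with Snhg18, had 1430 and 1286 with knockdown and 1748, 1583 and 2312 in empty vector samples 1, 2 and 3. Both knockdown samples lay below every control, with a log2 difference of -0.45 ± 0.14 (SE, limma adjusted p = 0.565) and -0.22 with the flow cell term. Znfx1, which overlaps Zfas1 on the opposite strand, had a log2 difference of -0.19, against 0.35 for Zfas1. Lrrc75a beside 2410006H16Rik had -0.032, and Epb41l4a beside Epb41l4aos had -0.0058.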

How the data were processed

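The authors deposited normalized values per gene, a signal of reads divided by a size factor per sample, judged from the values, and a table of their own comparison with p-values, ratios (fold) and group means, per the file headers. Per the submitters' processing notes, STAR, Partek and DESeq2 1.34.0 were used with mm9. Tool roles, annotation and strand setting were not given in the sources used here. Of the values of up to 100 reads, 88.3% to 89.1% were whole within 0.02 reads, too few for a count model, so the limma fit foreseen for normalized values applied.

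The tests ran on log2(value + 1), a scale that understates low genes, using limma 3.58.1 in R 4.3.3 (trend, robust, two-sided, Benjamini-Hochberg over 11990 genes with a mean of at least 10). No 2 samples matched within counting noise (10 pairs compared). Alternatives changed the pseudocount, filter, variance model, scaling, flow cell, pairing, length trend and samples. Transcript lengths came from GENCODE M21 (99.4% of genes matched), promoters and the miRNA from RefSeq. The file's positions were not matched to a build, so chromosomes alone are given for genes.

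Members and lists were chosen with earlier results of these data known. Hosts with a mean of at least 100 are described by sample, and 3 members per related list with a mean of at least 50 and the smallest p are named. Snhg10, Snhg18, Snhg20, Dancr and 2410006H16Rik are shown by sample beyond this rule, chosen after their values were seen. The likeness to Gas5 that the rule foresaw was not computed, and neighbours are named within 2 kb. The microRNA sites of 1 host are not reported here.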

Additional observations from a re-analysis of the deposited data

How the results depend on the processing

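No Snhg gene passed the threshold under any of 15 alternatives, and 196 of 207 recomputed differences kept their sign. The 207 are not separate checks. A change of the filter or the variance model leaves each difference as it was, so those signs were fixed in advance. Flow cell B samples alone gave the same differences as the flow cell term, and the replicate block the same as leaving out empty vector 3. With the flow cell term, or with flow cell B samples only, Snhg6 turned to -0.28 and Zfas1 to -0.0086. Dancr turned to -0.020, 1110038B12Rik to -0.024 and 2410006H16Rik to -0.077 in these fits. With the length trend removed, Snhg6 had -0.011 and 2410006H16Rik -0.0071; Snhg7 had no length. With the replicate number as a block, Snhg1 had -0.030, Snhg6 -0.037 and 1110038B12Rik 0.43 (limma adjusted p = 0.0159), and 330 of all genes passed, in place of 0 in the main analysis. Deviations of same-numbered samples from their group means correlated by 0.0864 and 0.0286. With 2 knockdown samples, 1 deviation is the mirror image of the other, so these values cannot decide whether same-numbered samples were paired. The cause of these changes was not tested. Leaving out 1 sample at a time gave 0 to 107 genes past the threshold (28 without empty vector 2, 107 without knockdown 1), -0.036 to 0.11 for Snhg1, -0.13 to 0.46 for Snhg6, -0.47 to 0.54 for Snhg7 and -0.0033 to 0.27 for Dancr. The members' median ranged from 0.10 to 0.24 in these fits. Per kb of the median transcript length Snhg5 had 1225 in empty vector. DESeq2 was not run, since whole reads were not recovered for nearly all genes, and Gas5 gave no value. Depth limits Snhg10 and Snhg7, and the ranges of reads given are the fewest and most over the samples.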

Other observations

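The regulators of messengers that start with a pyrimidine run, including the mTOR complex, had 7 of 17 members higher and 10 lower with knockdown. Over all tested genes 50.2% were higher. The median log2 difference of the list was -0.068, and 0 were past the threshold by limma. At an unadjusted limma p under 0.05, 1 was higher and 1 lower, beside 2.83% and 5.3% of all tested genes. Rptor, a subunit of mTOR complex 1, had 2262 ± 20.0 in the controls (SD, n = 3) and 1895 ± 302 after knockdown (SD, n = 2). Eif4ebp1, a repressor of cap-dependent translation that mTOR switches off, had 1344 ± 164 and 1608 ± 182 in the same order. With the flow cell term their log2 differences of -0.26 and 0.26 were -0.25 and 0.064. The median of the list was -0.00035 with that term, -0.0084 with the length trend removed and 0.011 without knockdown 2, where 11 of 17 were higher.

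The glucocorticoid receptor and its targets had 10 of 14 tested members higher, beside 50.2% of all tested genes. The median log2 difference of the list was 0.063, and 0 were past the threshold by limma. At an unadjusted limma p under 0.05, 1 was higher, beside 2.83% of all tested genes. Mt1, a metallothionein gene, had 8138 ± 701 in the controls (SD, n = 3) and 9234 ± 559 after knockdown (SD, n = 2). Its groups overlapped, with 8883 in empty vector 2 beside 8838 in knockdown 1. Its log2 difference of 0.18 was 0.055 with the flow cell term and 0.044 with the length trend removed. Pdk4, a kinase that restrains pyruvate oxidation, had a log2 difference of -0.21, and the clock gene Per1 0.19. Those of Pdk4 and Per1 were -0.16 and 0.31 with the flow cell term. With the flow cell term the median of the list was -0.016, with 6 of 14 higher, beside 47.3% of all genes.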
